A study of Mus musculus with 3 samples.

Results

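The genes described here encode ligands and receptors through which tissues signal to blood vessels: the ligand genes Vegfa, Adm, Apln and Angpt2 and the receptor genes Kdr, Flt1, Nrp1, Calcrl, Ramp2 and Aplnr. They were chosen by name, with earlier results of these data known, and make up 10 of the 51923 genes in the deposited count matrix; all 10 had reads. The matrix holds 14777 single cells from C57BL/6 mouse embryos that all carried Mesp1-Cre and the Ai9 red fluorescent reporter. Control embryos were Wls fl/+ and mutant embryos Wls fl/fl (the deposited per-cell table calls them wildtype and knockout), so that Mesp1-Cre can remove 1 allele of Wls in controls and both in mutants. Wls encodes the carrier that cells need to secrete Wnt proteins. Mesp1-Cre acts in early mesoderm, and red cells were sorted before capture, so cells of other lineages were kept only as far as the sort let them through. Cells were marked with lipid-tagged barcodes (MULTI-seq), pooled, and captured on the 10x Chromium v3 platform in 3 runs. The 22 barcode samples were 1 control at E7.5, 3 controls and 3 mutants at E8.0, 2 controls and 1 mutant at E8.5, and 6 controls and 6 mutants at E9.5. Whether a barcode stands for 1 embryo is not given in the sources used here, so p-values measure the spread between barcode samples, which may be partly technical.

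As background, VEGF-A is the main growth factor of endothelial cells. It signals through VEGFR2, encoded by Kdr, while VEGFR1, encoded by Flt1, binds VEGF-A tightly and limits the amount that reaches VEGFR2, and neuropilin-1, encoded by Nrp1, is a co-receptor that also binds semaphorins. Adrenomedullin, encoded by Adm, acts on a receptor made of CALCRL and the accessory protein RAMP2, and mice that lack any one of these proteins die before birth with vascular defects. Apelin, encoded by Apln, acts on APLNR, which is also needed in the early heart. Angiopoietin-2, encoded by Angpt2, is a ligand of the endothelial receptor TIE2. Vegfa and Adm are among the classical target genes of low-oxygen signalling.

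The barcode samples differed widely in size, from 6 to 2508 cells and from 134457 to 61307782 UMIs (unique molecular identifiers, each counting 1 captured transcript). Levels below are in CPM, the UMIs of a gene over all UMIs of the sample on the usual CPM scale. E8.0 was captured in run 1 alone and E8.5 in run 2 alone, while E9.5 was spread over all 3 runs with both genotypes in each. Wls itself stood at 35.9 to 65.4 CPM in the controls from E8.0 on and at 3.72 to 14.2 CPM in the mutants, with no overlap. The E7.5 sample of 28 cells, labelled control, had 14.1 CPM, inside the mutant range and below every other control. It entered no test. Cells with a UMI from a Y-linked gene made up 18.9% to 58.1% of the E8.0 controls and 90.4% to 93.9% of the E8.0 mutants, so sex and genotype cannot be told apart at E8.0. At E9.5 the mutants ranged from 7.74% to 88.3% and the controls from 6.41% to 17.1%, apart from Bar7 at 65.2% and Bar6, a sample of 6 cells, at 100%. In run 1 the E9.5 controls were at 17.1% and 16.4% and the mutants at 88.3%, 85.8% and 19.5%. Globin made up at least 5% of the UMIs in 2172 cells, and 23 cell barcodes occurred in more than 1 run.

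Endothelial cells were taken as those with at least 1 UMI of Cdh5, the gene of VE-cadherin. They numbered 470 of the 14777 cells, or 3.18%. All 11 other endothelial markers were higher in them, by a ratio of 2.76 for Npr3 to 146 for Cldn5. The 326 cells with 2 or more Cdh5 UMIs carried a median of 9 of the 11 markers and 94.2% fell into the cell cluster with an endothelial pattern. The 144 cells with a single UMI carried a median of 3, and 38.2% fell into that cluster, so the Cdh5-positive class also holds other cells. Conversely, 187 cells of the endothelial-like cluster had no Cdh5 UMI and were counted as Cdh5-negative.

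Promoter sequences are shown for Adm, Vegfa, Apln and Flt1, the 4 genes with the largest fold change between the genotypes at E9.5 in all cells. Each is the 250 bases before the first listed RefSeq start (GRCm38.p6), 5′ to 3′ in the direction of transcription. Capitals mark ACGTG or GCGTG on either strand, the core of the element bound by the low-oxygen factors. Vegfa lies at chr17:46032378-46032627 on the minus strand, Adm at chr7:110627407-110627656 on the plus strand, Apln at chrX:48034854-48035103 on the minus strand and Flt1 at chr5:147726012-147726261 on the minus strand.
Vegfa: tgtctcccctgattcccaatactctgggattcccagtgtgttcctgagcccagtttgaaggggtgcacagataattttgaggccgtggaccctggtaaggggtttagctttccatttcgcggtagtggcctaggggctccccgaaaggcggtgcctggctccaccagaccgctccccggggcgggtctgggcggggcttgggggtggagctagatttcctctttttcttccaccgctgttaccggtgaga
Adm: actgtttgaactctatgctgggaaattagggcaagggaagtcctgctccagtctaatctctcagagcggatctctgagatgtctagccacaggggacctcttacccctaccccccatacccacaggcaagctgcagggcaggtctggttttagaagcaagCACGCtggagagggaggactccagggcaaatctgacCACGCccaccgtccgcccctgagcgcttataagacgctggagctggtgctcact
Apln: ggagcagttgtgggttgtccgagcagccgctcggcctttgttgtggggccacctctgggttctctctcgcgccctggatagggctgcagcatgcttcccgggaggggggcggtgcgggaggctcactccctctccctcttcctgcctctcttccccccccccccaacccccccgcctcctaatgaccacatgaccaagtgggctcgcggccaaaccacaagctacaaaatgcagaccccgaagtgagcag
Flt1: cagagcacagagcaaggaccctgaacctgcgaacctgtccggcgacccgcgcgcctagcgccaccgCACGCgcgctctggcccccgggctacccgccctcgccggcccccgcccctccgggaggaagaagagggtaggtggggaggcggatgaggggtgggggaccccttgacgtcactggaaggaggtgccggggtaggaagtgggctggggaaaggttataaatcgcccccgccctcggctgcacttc
The Adm window held 2 cores, both read from the opposite strand, the Flt1 window 1, and the Vegfa and Apln windows 0. Vegfa has a second listed start, whose window at chr17:46025164-46025413 on the minus strand, not shown, held 2 cores. That window lies inside the annotated span of Vegfa itself, chr17:46016993-46032369. Such a core stood in 38.6% of all 32851 windows of this length. The Flt1 window also held TATAAA, the letters of a TATA box, which stood in 12.37% of all windows on either strand. Of the 10 genes, 7 matched the promoter table, and 5 of these 7 had a core in at least 1 window, Vegfa through its second start alone. This counts genes, Vegfa with both of its windows, whereas the 38.6% counts single windows. These are matches of letters and not measured binding sites.

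Within the embryos, Kdr, Flt1, Calcrl, Ramp2, Aplnr, Apln and Adm were higher in Cdh5-positive than in Cdh5-negative cells and Vegfa was lower, while Nrp1 and Angpt2 did not pass. In 15 barcode samples with at least 10 cells of each class, the 2 classes were compared within each sample (edgeR quasi-likelihood test with Benjamini-Hochberg adjustment over all genes tested, threshold 0.05, as in all tests below). Of the 10 genes, 7 were higher and 1 lower in Cdh5-positive cells, where 41.3% of all genes tested passed in either direction. The median log2 difference was 3.03 over the 10 genes and -0.109 over all genes tested.

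Ramp2 had 265 to 870 CPM in Cdh5-positive cells (median 624) and 13.4 to 32.8 CPM in Cdh5-negative cells (median 19.4), a log2 difference of 4.81 (SE 0.0809, adjusted p = 1.3e-25). Flt1 had 71.4 to 512 CPM (median 180) against 3.65 to 11.5 CPM (median 5.0), a log2 difference of 4.77 (SE 0.141, adjusted p = 1.35e-20). The ranges of the classes did not overlap for either gene. Kdr was at 198 to 527 CPM (median 323) against 9.41 to 61.4 CPM (median 22.8), and its log2 difference was 3.72 (SE 0.148, adjusted p = 1.03e-17). Calcrl, the membrane-spanning part of the adrenomedullin receptor, was at 23.4 to 91.8 CPM (median 53.0) against 1.56 to 4.68 CPM (median 3.12). Aplnr ran from 75.1 to 183 CPM (median 124) against 2.91 to 41.9 CPM (median 12.5). Both were higher in the Cdh5-positive cells of every one of the 15 samples, with log2 differences of 3.92 for Calcrl (SE 0.142, adjusted p = 1.44e-18) and 2.83 for Aplnr (SE 0.237, adjusted p = 1.06e-10).

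Among the ligands, Apln was at 3.69 to 53.0 CPM (median 13.7) in Cdh5-positive and 0.678 to 4.4 CPM (median 1.26) in Cdh5-negative cells, higher in the positive class of 15 of 15 samples (log2 difference 3.22, SE 0.238, adjusted p = 8.33e-12). Vegfa ran the other way, with 7.05 to 34.1 CPM (median 17.4) in Cdh5-positive and 18 to 80.7 CPM (median 27.3) in Cdh5-negative cells. Its level was higher in the positive class of only 1 of the 15 samples (log2 difference -0.886, SE 0.13, adjusted p = 2.71e-06). Adm was higher in the positive class of 9 of the 15 samples, with a log2 difference of 0.756 (SE 0.216, adjusted p = 0.00586), and DESeq2 did not call it (adjusted p = 0.081). Nrp1 (log2 difference 0.27, SE 0.173, adjusted p = 0.229) was split, with 8 samples higher in positive and the other 7 higher in negative cells. The endothelial-like cluster in place of the Cdh5 class did call Nrp1, at a log2 difference of 0.725 (adjusted p = 9.12e-06). Angpt2 differed by -0.00275 on the log2 scale (SE 0.207, adjusted p = 0.996).

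**Figure D1:**
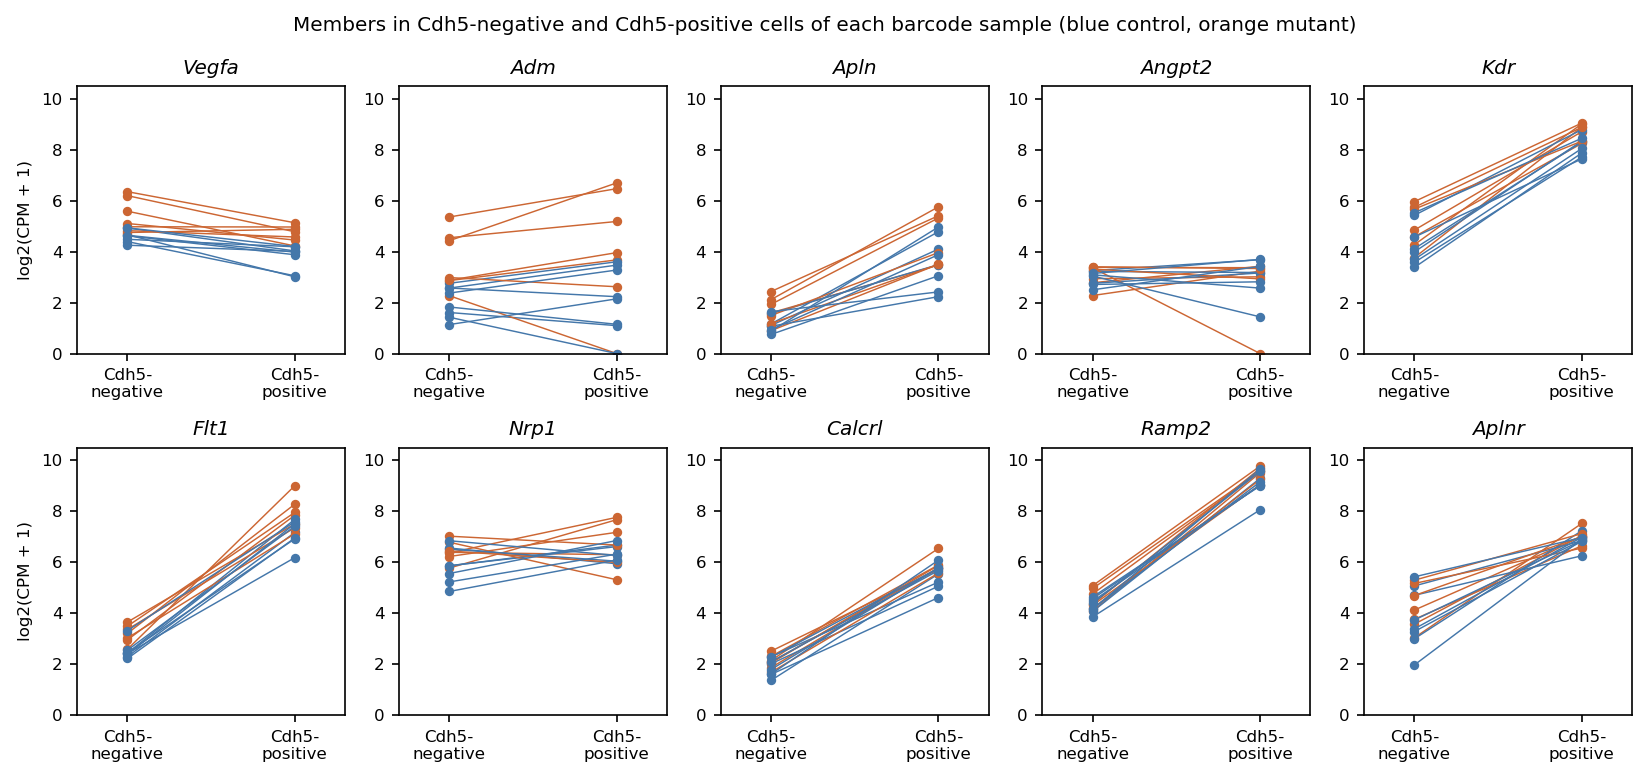
Level of each gene, as log2(CPM + 1), in the Cdh5-negative and Cdh5-positive cells of 15 barcode samples; a line joins the 2 classes of 1 sample, blue for control and orange for mutant. Lines rise in all 15 samples for Kdr, Flt1, Calcrl, Ramp2, Aplnr and Apln and fall in 14 of 15 for Vegfa. The lines of Adm, Nrp1 and Angpt2 go both ways, with Adm higher in Cdh5-positive cells in 9 of 15 samples.

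The share of cells with at least 1 UMI gives the same picture in other units, set beside globin-high cells (at least 5% globin UMIs). Kdr was found in 83.2% of Cdh5-positive cells, 17.5% of Cdh5-negative cells with little globin and 3.24% of globin-high cells, at median depths of 24023.5, 20915.5 and 27718 UMIs. With every cell thinned to 5000 UMIs (2, 390 and 55 shallower cells left out) the shares for Kdr were 65.4%, 7.62% and 0.903%. Vegfa was found in 31.9%, 43.0% and 15.4% of the same 3 classes, and after thinning in 8.12%, 16.1% and 3.09%. Angpt2 was found in 17.7%, 13.9% and 11.1%, and in 4.70%, 3.94% and 1.95% after thinning. In globin-high cells its share at E8.0 was 23.4% in controls and 26.5% in mutants (4.33% and 4.42% after thinning) and at E9.5 10.8% and 6.90% (1.35% and 1.31%). Cdh5-negative cells with little globin had 16.7% and 18.6% at E8.0 (3.88% and 5.02%) and 14.1% and 12.9% at E9.5 (3.95% and 4.04%). Pooled globin-high cells had Vegfa at 6.68 CPM, Angpt2 at 4.36 CPM and Nrp1 at 2.35 CPM. Whether these reads come from the globin-high cells themselves was not tested.

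The levels of the ligand genes differed between cell types. Cells were grouped into 31 clusters, of which 19 could be named from markers. The 5476 cells of the unnamed clusters are left out, so each ranking of classes below is among the named ones. A sample entered a class with at least 20 cells of it, and a cluster compared with the rest is a description and not a test. Over all stages, Vegfa was at 76.6 ± 69.8 CPM (SD, n = 10 samples) in splanchnic or posterior second heart field-like cells, 68.0 ± 68.1 CPM (SD, n = 10) in proepicardium-like cells, 52.5 ± 29.9 CPM (SD, n = 16) in cardiomyocyte-like cells and 7.06 ± 1.91 CPM (SD, n = 16) in blood-like cells. The first 3 of these do not differ beyond their spread, and these means pool both genotypes. In the E9.5 controls alone, the order of the 3 was another one: Vegfa was at 42.7 ± 9.82 CPM (SD, n = 5) in cardiomyocyte-like, 29.4 ± 4.53 CPM (SD, n = 4) in splanchnic or posterior second heart field-like and 21.4 ± 8.41 CPM (SD, n = 4) in proepicardium-like cells. Adm over both genotypes was at 48.2 ± 44.1 CPM (SD, n = 10) in proepicardium-like cells, 34.9 ± 48.2 CPM (SD, n = 10) in splanchnic or posterior second heart field-like cells and 23.4 ± 23.3 CPM (SD, n = 16) in cardiomyocyte-like cells, against 0.419 ± 0.543 CPM (SD, n = 16) in blood-like cells. In the E9.5 controls alone, Adm was at 33.2 ± 10.7 CPM (SD, n = 4) in proepicardium-like, 16.9 ± 8.63 CPM (SD, n = 5) in cardiomyocyte-like, 7.12 ± 4.88 CPM (SD, n = 3) in endothelial-like and 5.56 ± 6.68 CPM (SD, n = 4) in splanchnic or posterior second heart field-like cells. Apln had its highest mean in endothelial-like cells, 13.5 ± 11.9 CPM (SD, n = 12), and the next in neural-like cells, 9.64 ± 7.68 CPM (SD, n = 5). In the E9.5 controls alone these 2 classes did not overlap, with Apln at 12.4 to 29.0 CPM (n = 3) in endothelial-like and 3.60 to 8.51 CPM (n = 3) in neural-like cells. Angpt2 had its highest mean in lateral plate or allantois-like cells, 14.0 ± 7.85 CPM (SD, n = 12), and the other classes lay between 4.62 and 9.70 CPM, within that spread or nearly so.

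Among the receptor genes, Kdr was at 483 ± 112 CPM (SD, n = 12) in endothelial-like cells, and next came pharyngeal or anterior second heart field-like cells at 49.1 ± 31.7 CPM (SD, n = 13) and lateral plate or allantois-like cells at 44.3 ± 37.0 CPM (SD, n = 12), again over all stages and both genotypes. In the E9.5 controls alone the ranges of these last 2 classes did not overlap, with Kdr at 52.7 ± 11.1 CPM (SD, n = 4) in pharyngeal and 14.4 ± 11.8 CPM (SD, n = 4) in lateral plate cells. Aplnr over all stages was highest in 2 classes, endothelial-like cells at 113 ± 28.3 CPM (SD, n = 12) and pharyngeal or anterior second heart field-like cells at 84.6 ± 21.5 CPM (SD, n = 13). In the E9.5 controls alone these were at 109 to 163 CPM (n = 3) and 42.0 to 101 CPM (n = 4), and the next, splanchnic or posterior second heart field-like cells, at 9.49 ± 5.71 CPM (SD, n = 4). Nrp1 was found in most classes and had its highest mean outside the endothelium, 192 ± 29.8 CPM (SD, n = 10) in proepicardium-like cells against 125 ± 30.5 CPM (SD, n = 12) in endothelial-like cells and 2.42 ± 2.14 CPM (SD, n = 16) in blood-like cells. Calcrl stood at 47.3 ± 5.93 CPM (SD, n = 12) in endothelial-like cells and at 7.02 ± 4.78 CPM (SD, n = 13) in the next class, the pharyngeal or anterior second heart field-like cells.

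The genotype comparison asked whether these genes depend on Wnt secretion by the Mesp1 lineage. At E9.5, the ligand genes Vegfa, Adm and Apln were higher in mutants, as were the receptor genes Flt1 and Nrp1, while the ligand gene Angpt2 did not pass. That is 5 of the 10 genes, all higher, where 10.3% of the 17227 genes tested passed in either direction. The median log2 fold change was 0.516 over the 10 genes and 0.0233 over all genes tested. Sums over all cells of a sample cannot tell apart more cells of a type and more RNA per cell.

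Vegfa in all cells of the E9.5 controls was at 7.44, 12.98, 17.97, 23.28, 23.85 and 28.89 CPM, and in the mutants at 46.44, 60.30, 70.52, 77.12, 78.68 and 79.31 CPM. The lowest control value, that of Bar6 with 6 cells, is a single UMI. Every mutant lay above every control. The means were 19.1 ± 7.88 and 68.7 ± 13.1 CPM (SD, n = 6 each), and the log2 fold change, fitted with run as a term, was 1.59 (SE 0.174, adjusted p = 7.25e-05).

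Adm rose most of the 10 genes. Its controls were at 0, 1.27, 1.65, 2.51, 5.05 and 5.94 CPM and its mutants at 9.70, 10.14, 13.41, 22.56, 23.69 and 41.40 CPM, again with no overlap, and the 3 highest mutants were those of run 1. The means were 2.74 ± 2.30 and 20.2 ± 12.0 CPM (SD, n = 6 each), with a log2 fold change of 2.57 (SE 0.225, adjusted p = 9.6e-06).

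Apln, an X-linked gene with few reads, was at 0, 0.84, 1.32, 1.51, 1.51 and 2.07 CPM in controls and 2.16, 2.35, 4.20, 4.25, 4.8 and 5.48 CPM in mutants. The groups just failed to overlap, and the log2 fold change was 1.35 (SE 0.217, adjusted p = 0.00171). With the share of cells that had a Y-linked UMI as a covariate, Apln kept a log2 fold change of 1.28 (adjusted p = 0.00829). The calls of Vegfa, Adm and Apln held without any 1 of the 12 samples, at log2 fold changes of 1.47 to 1.77, 2.39 to 2.74 and 1.18 to 1.47.

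Flt1 in controls ranged from 0 to 10.15 CPM with a median of 7.77, and in mutants from 4.31 to 19.85 CPM with a median of 14.9. The groups overlapped through the mutant of 57 cells, barcode Bar5, which had the lowest mutant value. The log2 fold change of Flt1 was 0.809 (SE 0.197, adjusted p = 0.0191), and the call was lost without control Bar22 (adjusted p = 0.0965) or Bar23 (adjusted p = 0.124). Nrp1 ranged from 18.85 to 74.37 CPM in controls (median 47.6) and 43.11 to 91.26 CPM in mutants (median 73.3), with wide overlap. Its log2 fold change was 0.715 (SE 0.18, adjusted p = 0.0229), lost without Bar23 (adjusted p = 0.0513) or Bar9 (adjusted p = 0.0778).

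The remaining 5 genes did not pass at E9.5. Kdr had a log2 fold change of 0.318 (adjusted p = 0.218), with controls at 7.44 (Bar6, a single UMI) to 25.10 CPM and mutants at 17.77 to 42.76 CPM. Aplnr (0.219, adjusted p = 0.667), Calcrl (0.171, adjusted p = 0.656), Angpt2 (0.0264, adjusted p = 0.969) and Ramp2 (-0.0672, adjusted p = 0.84) were nearer to 0 on the log2 scale. The summed level of the 11 endothelial markers, which bears on how many endothelial cells the sums hold, was 44.6 to 203.5 CPM in controls (median 155.3) and 111 to 239.3 CPM in mutants (median 183.2).

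**Figure D2:**
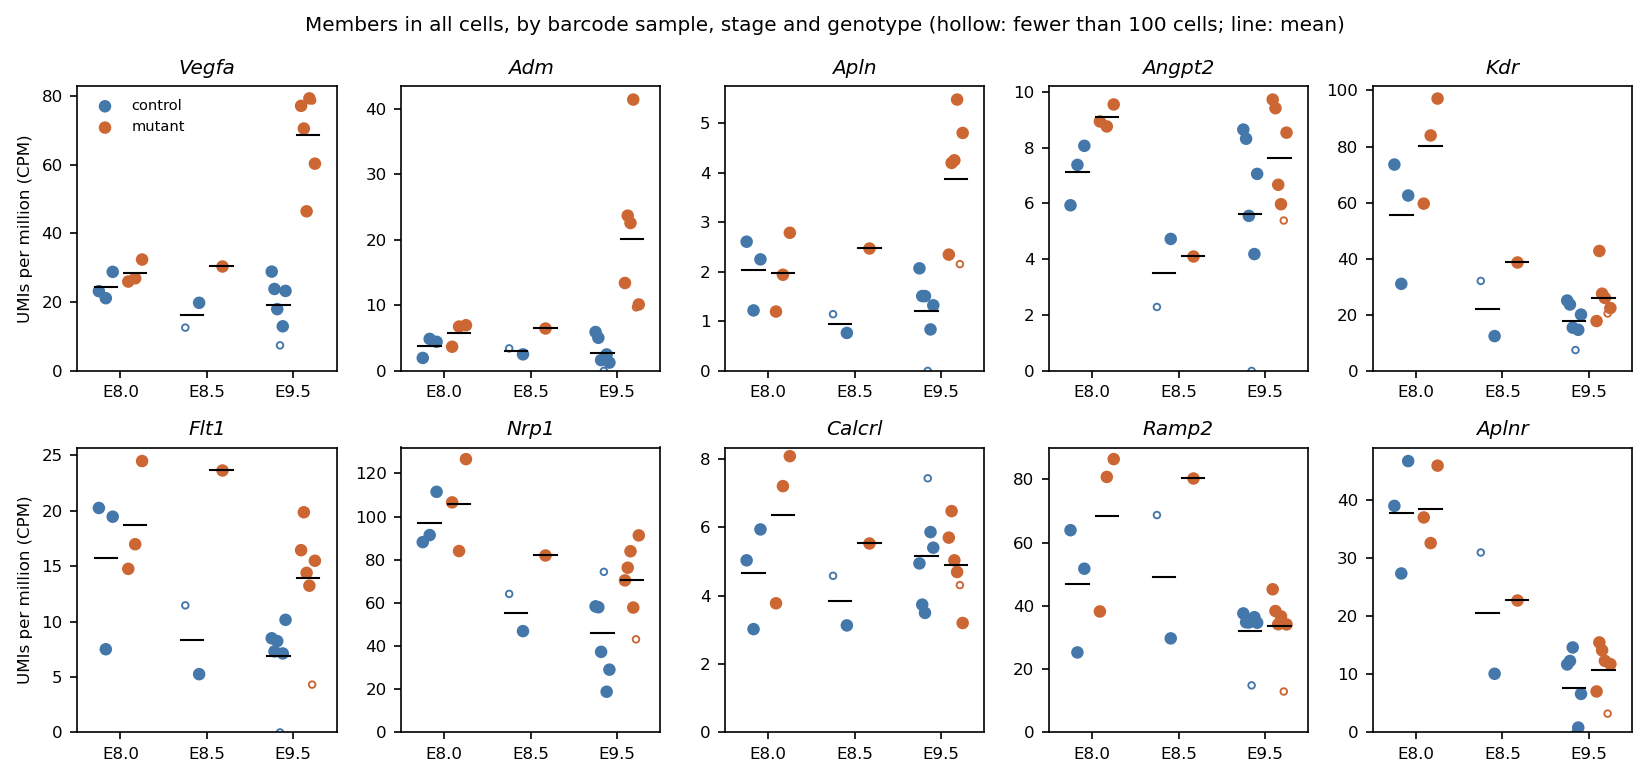
Level of each gene in CPM over all cells of each barcode sample, by stage, blue for control and orange for mutant; hollow points are samples of fewer than 100 cells and lines are group means. At E9.5 the 6 mutants lie above the 6 controls for Vegfa, Adm and Apln, while the groups overlap for the other genes shown.

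The runs that could be fitted alone gave the same direction for Vegfa, Adm, Flt1 and Nrp1. In run 1, with 2 controls and 3 mutants, the log2 fold changes were 1.36 for Vegfa (adjusted p = 0.0284), 2.46 for Adm (adjusted p = 0.0163), 1.41 for Apln (adjusted p = 0.0241) and 1.05 for Flt1 (adjusted p = 0.0311). Nrp1 did not pass there (0.364, adjusted p = 0.123). In run 3, with 2 and 2, Vegfa (1.66, adjusted p = 0.0296) and Nrp1 (1.5, adjusted p = 0.0246) passed, while Adm (2.81, adjusted p = 0.0591) and Flt1 (0.644, adjusted p = 0.328) did not. In run 2, with 2 controls and 1 mutant, Vegfa was at 7.44 (Bar6, a single UMI) and 17.97 CPM in the controls and 78.68 CPM in the mutant. Median UMIs per cell were 12386 to 24431 in the E9.5 controls and 9759.5 to 21308.5 in the mutants, and the part of depth in these results was not tested.

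The rise in Vegfa and Adm was seen in several cell types at E9.5, each described here without a test. In splanchnic or posterior second heart field-like cells, Vegfa was at 24.2, 27.6, 31.1 and 34.7 CPM in 4 controls and 66.7, 121.5, 182.9 and 209.5 CPM in 4 mutants, without overlap. In the same cells Adm was at 0, 0, 8.86 and 13.4 CPM in controls and 28.0, 53.7, 93.0 and 143 CPM in mutants. In proepicardium-like cells, Vegfa was at 10.3, 19.5, 26.7 and 29.0 CPM in controls and 49.7, 139.7, 140.7 and 205.9 CPM in mutants. In both classes every mutant had more Vegfa than every control.

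Adm in proepicardium-like cells overlapped between genotypes, with 19.5 to 44.9 CPM in controls and 32.1 to 165 CPM in mutants. Apln had 0 UMIs in the proepicardium-like cells of all 4 controls and 0.743 to 9.18 CPM in the 4 mutants, the lowest of which is a single UMI. Cardiomyocyte-like cells had Vegfa at 32.7 to 57.6 CPM in 5 controls and 63.3 to 125 CPM in 4 mutants, and Adm at 7.11 to 30.3 CPM and 16.1 to 104 CPM, the latter overlapping. In blood-like cells Vegfa overlapped, at 4.09 to 7.56 CPM in 5 controls and 7.52 to 10.7 CPM in 4 mutants. Their clusters differed by genotype, with 33.1% of control and 80.3% of mutant blood-like cells in cluster 4. In pharyngeal or anterior second heart field-like cells Vegfa was at 21.7 to 33.2 CPM in 4 controls and 45.0 to 100 CPM in 3 mutants, and Adm at 0 to 1.78 CPM and 11.5 to 21.4 CPM. Aplnr in these pharyngeal cells, one of its main sites, was at 42.0 to 101 CPM in controls and 73.5 to 98.6 CPM in mutants, with full overlap. Cardiomyocyte-like cells came from clusters 1 and 13 (60.8% and 39.2% of controls, 65.6% and 34.4% of mutants) and pharyngeal cells from clusters 0 and 5 (32.1% and 67.9% of controls, 24.8% and 75.2% of mutants).

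**Figure D3:**
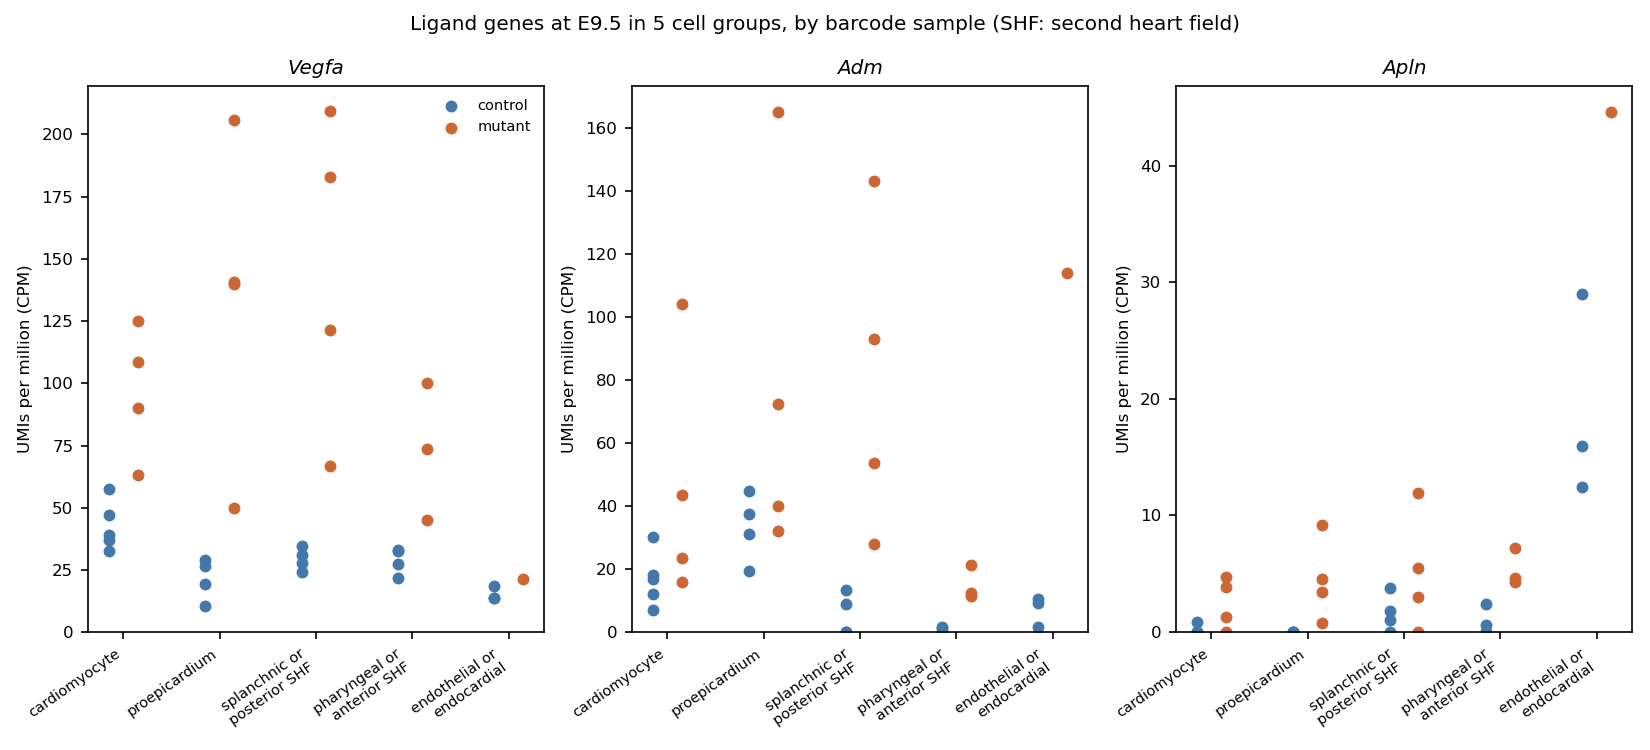
Level of Vegfa, Adm and Apln in CPM at E9.5 in 5 named cell classes, 1 point per barcode sample with at least 20 cells of the class, blue for control and orange for mutant. Among the classes shown, Vegfa of every mutant lies above every control in the 4 with at least 3 mutants, and the endothelial-like class has a single mutant sample. Blood-like cells, where the genotypes overlap, are not shown.

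In Cdh5-positive cells at E9.5, Adm and Flt1 were higher in mutants. Only 4 controls and 3 mutants had at least 10 such cells, and since all 3 mutants were in run 1, the comparison rests on that run and its 2 controls, in which Y-linked UMIs were rarer than in 2 of the 3 mutants. Of the 9 genes tested (Angpt2 was below the filter on low counts), 2 passed, where 0.801% of all genes tested did. The median log2 fold change was 0.903 over the 9 genes and 0.0263 over all genes tested.

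Adm was at 0, 3.42, 10.08 and 11.13 CPM in the Cdh5-positive cells of controls and 35.31, 87.61 and 102.62 CPM in those of mutants (log2 fold change 2.9, SE 0.404, adjusted p = 0.0103). Flt1, the decoy receptor, was at 119.92, 142.60, 169.41 and 181.11 CPM and 228.75, 309.41 and 512.02 CPM (log2 fold change 1.39, SE 0.253, adjusted p = 0.031). Neither gene's groups overlapped. The Adm call was lost without control Bar22 (adjusted p = 0.122), control Bar23 (adjusted p = 0.0845) or mutant Bar21 (adjusted p = 0.0732). The Flt1 call was lost without Bar22 (adjusted p = 0.237), Bar23 (adjusted p = 0.368) or mutant Bar19 (adjusted p = 0.0662). With the Y-linked share as a covariate, Adm did not pass (1.62, adjusted p = 0.324) and Flt1 did (1.96, adjusted p = 0.009). In the endothelial-like cluster, taken in place of the Cdh5 class, the log2 fold changes were 3.15 for Adm (adjusted p = 0.0033) and 1.26 for Flt1 (adjusted p = 0.00555).

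Per cell, Adm UMIs were found in 18 of 162 Cdh5-positive cells of E9.5 controls (11.1%) and 34 of 68 of mutants (50%), at median depths of 19476 and 18616 UMIs. After thinning to 5000 UMIs the shares were 1.88% and 25%. In Cdh5-negative, globin-high cells of the same stage the shares were 0.477% and 2.16%, and 0% and 0.218% after thinning. The share in Cdh5-positive cells thus lay above that of globin-high cells in both genotypes, before and after thinning. These shares pool the cells of all samples of a genotype, so they do not show the spread between samples.

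The other receptors in Cdh5-positive cells missed the threshold. Kdr was at 208.28, 263.53, 313.40 and 322.76 CPM in controls and 416.70, 472.10 and 515.55 CPM in mutants, without overlap, at a log2 fold change of 0.563 (SE 0.134, adjusted p = 0.0807). Nrp1 was at 66.74, 78.48, 96.69 and 100.77 CPM and 143.04, 201.98 and 215.40 CPM, also without overlap (0.903, SE 0.188, adjusted p = 0.0532). In the endothelial-like cluster the value of Nrp1 fell to 0.339 (adjusted p = 0.402). Calcrl (0.869, adjusted p = 0.189), Ramp2 (0.415, adjusted p = 0.296) and Aplnr (0.0333, adjusted p = 0.974) had overlapping groups.

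Of the ligands in Cdh5-positive cells, Apln was at 13.69, 16.12, 26.43 and 30.19 CPM in controls and 38.87, 41.37 and 52.97 CPM in mutants (log2 fold change 0.998, adjusted p = 0.188). Vegfa was at 7.05, 13.69, 15.09 and 15.30 CPM and 17.66, 26.43 and 34.07 CPM (1.2, adjusted p = 0.265). Both had separate ranges but few reads, and neither passed. The summed 11 endothelial markers in these cells were 2310 to 2783 CPM in controls and 2337 to 3076 CPM in mutants.

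In Cdh5-negative cells at E9.5, Vegfa, Adm, Apln, Flt1 and Nrp1 passed, 5 of 10 genes and all higher in mutants, where 11.7% of all genes tested passed. Vegfa was at 21.8 ± 6.10 CPM in controls (SD, n = 5) and 69.6 ± 13 CPM in mutants (SD, n = 6), a log2 fold change of 1.57 (SE 0.175, adjusted p = 0.000239). Adm was at 3.24 ± 2.01 and 19.2 ± 11.6 CPM (2.53, SE 0.25, adjusted p = 9.24e-05) and Apln at 1.00 ± 0.177 and 3.07 ± 0.802 CPM (1.57, SE 0.212, adjusted p = 0.000991). All 3 had separate ranges. Flt1 (0.821, adjusted p = 0.0303) and Nrp1 (0.743, adjusted p = 0.0346) overlapped, and these calls were lost in 6 and 8 of the 11 fits that left out 1 sample. With the Y-linked share as a covariate, the Flt1 call was lost as well (0.76, adjusted p = 0.09).

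Over all stages, the difference of the genotype effect between the 2 classes passed for 0 of the 10 genes (edgeR), where 0.00582% of all genes tested did. The widest of these differences was that of Adm, 0.437 on the log2 scale (SE 0.435, adjusted p = 0.983), so an unequal effect of genotype in endothelial and other cells was not detected for any of the 10 genes.

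**Figure D4:**
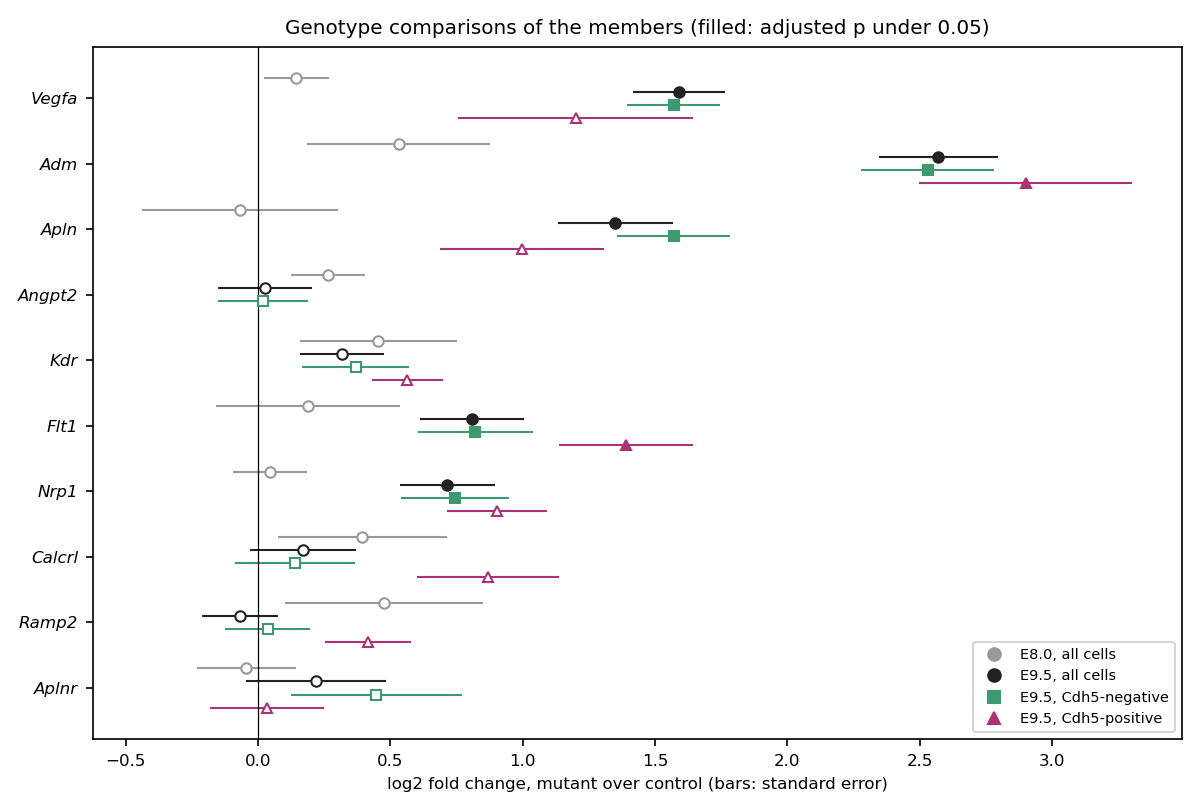
Fitted log2 fold change of mutant over control for each gene, with bars of 1 standard error, at E8.0 in all cells and at E9.5 in all, Cdh5-negative and Cdh5-positive cells; filled symbols have an adjusted p under 0.05. Filled symbols stand at E9.5 alone, for Vegfa, Adm, Apln, Flt1 and Nrp1 in all and in Cdh5-negative cells and for Adm and Flt1 in Cdh5-positive cells.

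At E8.0, no gene of the 10 passed (edgeR, with 0.0244% of all genes tested passing), and the largest estimate was that of Adm. Vegfa was at 21.16, 23.20 and 28.83 CPM in controls and 25.99, 26.95 and 32.41 CPM in mutants (log2 fold change 0.145, SE 0.123, adjusted p = 0.693). Adm was at 1.98, 4.44 and 4.88 CPM and 3.69, 6.76 and 6.97 CPM (0.532, SE 0.346, adjusted p = 0.611). Flt1 was at 7.5, 19.45 and 20.24 CPM and 14.75, 16.97 and 24.46 CPM (0.189, SE 0.348, adjusted p = 0.872). In each of these the groups overlapped. Angpt2 did not overlap, at 5.94, 7.38 and 8.07 CPM in controls and 8.76, 8.94 and 9.55 CPM in mutants, and did not pass (0.265, SE 0.14, adjusted p = 0.546). Groups were also separate, with mutants above controls, for Apln and Vegfa in Cdh5-positive cells (ratios of the means 1.93 and 1.46) and for Kdr in Cdh5-negative cells (1.49), which were not tested at E8.0 alone. With so few samples per group, separate ranges also arise by chance when many genes are looked at. The share of all genes with separate ranges was not computed, so no effect is read from these. Kdr in all cells (0.455, SE 0.296, adjusted p = 0.612) and Ramp2 (0.475, SE 0.374, adjusted p = 0.668) had wide errors, with 1 control, Bar26, lowest for both.

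The change of the genotype effect from E8.0 to E9.5 was tested as an interaction. It passed for 2 of the 10 genes, where 0.464% of all genes tested passed. The difference was 1.45 on the log2 scale for Vegfa (SE 0.264, adjusted p = 0.0169) and 2.05 for Adm (SE 0.41, adjusted p = 0.0294). With the Y-linked share as a covariate they were 1.52 (adjusted p = 0.00578) and 2.13 (adjusted p = 0.0148). Apln missed the threshold at 1.42 (SE 0.407, adjusted p = 0.152), as did Nrp1 at 0.675 (adjusted p = 0.342) and Flt1 at 0.617 (adjusted p = 0.585). The Vegfa call was lost without Bar29, Bar27 or Bar25 of E8.0 (adjusted p = 0.0504 to 0.0636). The Adm call was lost in 9 of the 18 fits that left out 1 sample, namely Bar26, Bar29, Bar27, Bar28 and Bar25 of E8.0 and Bar22, Bar23, Bar9 and Bar10 of E9.5, at values of 1.79 to 2.17 (adjusted p = 0.0506 to 0.101).

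E8.5 had 2 controls, of 2508 and 34 cells, and 1 mutant of 487 cells, so it is described without a test of its own. Vegfa was at 19.82 and 12.60 CPM in the controls and 30.44 CPM in the mutant, and Adm at 2.53 and 3.44 CPM against 6.58 CPM. Flt1 was at 5.25 and 11.46 CPM against 23.67 CPM. In the Cdh5-positive cells, with 29 cells of 1 control and 20 of the mutant, Vegfa counted 6 UMIs (7.29 CPM, exact Poisson 95% interval 2.67 to 15.9) and 18 UMIs (30.2 CPM, interval 17.9 to 47.8), and these intervals, here and elsewhere, cover counting error only. Nrp1 went the other way in these cells, 114 CPM in the control (interval 92.2 to 140) against 77.3 CPM in the mutant (interval 56.6 to 103).

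With all stages in 1 fit, Vegfa (log2 fold change 0.995, SE 0.195, adjusted p = 0.00339), Adm (1.68, SE 0.289, adjusted p = 0.00158), Apln (0.864, adjusted p = 0.0219), Flt1 (0.703, adjusted p = 0.0346) and Nrp1 (0.464, adjusted p = 0.0302) passed in all cells, 5 of 10 against 12.7% of all genes tested. Without the E9.5 samples 0 of the 10 passed, but that fit called 1 of all genes tested. Its log2 fold changes were 0.277 for Vegfa, 0.712 for Adm, 0.34 for Apln and 0.194 for Nrp1, while that of Flt1, 0.626, was close to its value with E9.5. Of the 21 fits that left out 1 sample, 8 lost the Flt1 call (Bar1, Bar3, Bar10, Bar19, Bar22, Bar23, Bar26 and Bar28), 6 that of Nrp1 (Bar1, Bar9, Bar10, Bar19, Bar22 and Bar23) and 3 that of Apln (Bar1, Bar22 and Bar23). With the Y-linked share as a covariate, Flt1 (0.79, adjusted p = 0.108) and Apln (0.995, adjusted p = 0.0815) did not pass.

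In Cdh5-negative cells over all stages 5 of 10 passed, against 14.5% of all genes: Vegfa, Adm, Flt1, Nrp1 and Kdr (0.514, SE 0.152, adjusted p = 0.0281), while Apln just missed (0.835, adjusted p = 0.0501). The Kdr call was lost in 7 of the 20 fits that left out 1 sample (Bar1, Bar3, Bar4, Bar5, Bar19, Bar22 and Bar28). It was also lost in the endothelial-like cluster in place of the Cdh5 class (0.448, adjusted p = 0.0723), with the Y-linked share (0.425, adjusted p = 0.254), in each run alone and without E9.5. The Nrp1 call was lost in 12 of those 20 fits, without Bar1, Bar3, Bar4, Bar5, Bar8, Bar9, Bar10, Bar19, Bar20, Bar22, Bar23 or Bar28. The Flt1 call held in all 20 but was lost with the Y-linked share, in each run alone and without E9.5. Vegfa, Adm and Nrp1 were lost in run 1 alone, in run 2 alone and without E9.5, and Adm also in run 3 alone. In Cdh5-positive cells 0 of 9 passed in edgeR, against 0.0386% of all genes tested, and the lowest adjusted p was that of Adm (2.22, SE 0.482, adjusted p = 0.0964).

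From E8.0 to E9.5, Aplnr, Kdr and Nrp1 fell and Adm rose in the whole sort, while Ramp2 fell only just past the threshold. Apln, Adm and Nrp1 rose in Cdh5-positive cells. The rise of Adm did not pass in controls alone in all cells, and was not tested in the Cdh5-positive cells of controls alone. Only run 1 holds both stages, with 3 controls and 3 mutants at E8.0 and 2 controls and 3 mutants at E9.5. With run as a term, these stage differences rest on that run, and in controls alone on 3 samples against 2. The ranges of E9.5 controls given below take in all 3 runs. In all cells, with genotype and run as terms, Aplnr fell by 1.52 on the log2 scale (SE 0.213, adjusted p = 9.7e-05), Kdr fell by 1.23 (SE 0.188, adjusted p = 0.000214), Nrp1 fell by 0.644 (SE 0.185, adjusted p = 0.0181) and Ramp2 fell by 0.642 (SE 0.225, adjusted p = 0.048). Adm rose by 1.53 (SE 0.349, adjusted p = 0.00472). That is 5 of 10 genes, where 21.7% of all genes tested passed. Aplnr was at 27.33, 38.94 and 46.65 CPM in the E8.0 controls and 0 to 14.61 CPM in the 6 E9.5 controls, without overlap, and Kdr at 31.05, 62.53 and 73.57 CPM and 7.44 to 25.10 CPM, also without overlap.

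The Ramp2 call was lost in 14 of the 18 fits that left out 1 sample (adjusted p = 0.0502 to 0.128), in DESeq2 (adjusted p = 0.0502), in run 1 alone (adjusted p = 0.0597), with samples of at least 20 cells (adjusted p = 0.054) and in controls alone (adjusted p = 0.482). The Nrp1 call in all cells was lost without Bar21 (adjusted p = 0.0528) and in mutants alone (adjusted p = 0.0663). The summed 11 endothelial markers moved with these receptors, from 222.3 to 345.5 CPM in E8.0 controls to 44.6 to 203.5 CPM in E9.5 controls, and the share of Cdh5-positive cells from 5.52% ± 1.36 (SD, n = 3) to 3.02% ± 0.843 (SD, n = 5). Their part in the fall of Kdr, Ramp2 and Aplnr in all cells was not tested.

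In Cdh5-negative cells, 4 of 10 genes passed, against 22.3% of all genes: Aplnr fell by 1.82 (SE 0.257, adjusted p = 0.000172), Kdr fell by 1.33 (SE 0.185, adjusted p = 0.000145) and Nrp1 fell by 0.724 (SE 0.202, adjusted p = 0.0166), while Adm rose by 1.49 (SE 0.36, adjusted p = 0.0074). The summed 11 endothelial markers in these cells went from 178.3 to 214.3 CPM in E8.0 controls to 73.3 to 129 CPM in E9.5 controls, without overlap, and 5 of 11 markers tested passed as lower. Their part in these falls was not tested. The rise of Adm with stage in all cells was that of mutants (2.4, adjusted p = 0.00123) and did not pass in controls alone (0.471, adjusted p = 0.452). In Cdh5-negative cells the rise of Adm did not pass in controls alone either (0.442, adjusted p = 0.481).

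In Cdh5-positive cells 3 of 9 genes passed, all higher at E9.5, against 8.89% of all genes tested. Apln was at 3.69, 4.34 and 10.22 CPM in E8.0 controls and 13.69 to 30.19 CPM in the 4 E9.5 controls, and at 10.30, 10.32 and 14.55 CPM in E8.0 mutants and 38.87 to 52.97 CPM in E9.5 mutants. Neither genotype overlapped between stages, and Apln rose by 1.82 on the log2 scale (SE 0.262, adjusted p = 0.000476). Nrp1 rose by 0.974 (SE 0.198, adjusted p = 0.00583), against the direction of the other cells, and Adm rose by 2.63 (SE 0.487, adjusted p = 0.00334). In the endothelial-like cluster, the value of Nrp1 was 0.338 and did not pass (adjusted p = 0.132). The summed 11 endothelial markers in Cdh5-positive cells went from 1111 to 2057 CPM in E8.0 controls to 2310 to 2783 CPM in E9.5 controls, without overlap, and from 1400 to 2530 CPM to 2337 to 3076 CPM in mutants. With Cdh5 itself, 4 of 12 markers passed as higher and 1 as lower, and their part in these rises was not tested. In controls alone 0 members passed and Adm was not tested, with Apln at 1.8 (adjusted p = 0.0839) and Nrp1 at 0.545 (adjusted p = 0.157). Kdr (-0.00363, adjusted p = 0.997), Ramp2 (0.0234, adjusted p = 0.965) and Calcrl (-0.0207, adjusted p = 0.978) did not pass in Cdh5-positive cells. Aplnr and Flt1 did not pass either. Aplnr did pass as higher in the endothelial-like cluster (adjusted p = 0.0238), and Flt1 passed in mutants alone and with no filter on low counts.

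A difference by genotype in the share of Cdh5-positive cells itself was not detected. At E8.0 it was 6.01% ± 2.11 in mutants and 5.52% ± 1.36 in controls (SD, n = 3 each, exact permutation p = 0.8, two-sided, where 0.1 is the smallest p possible). Later, at E9.5, the mutants had 2.19% ± 0.674 (SD, n = 6) against 3.02% ± 0.843 for the controls (SD, n = 5, exact permutation p = 0.108). The mutant mean was lower in each run, 2.53% against 2.67% in run 1, 1.75% against 2.14% in run 2 and 1.90% against 3.80% in run 3. With run as a term and labels permuted within run, the difference at E9.5 was -0.839 percentage points (exact permutation p = 0.108). Over both stages, with labels permuted within stage, the difference was -0.172 percentage points (exact permutation p = 0.858).

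Of 30 further genes of the same systems, 28 were tested by genotype in all cells at E9.5, and 3 were higher and 1 lower in mutants, where 10.3% of all genes tested passed. Adm2, encoding a peptide that shares the adrenomedullin receptors, was at 0.278 ± 0.172 CPM in controls and 3.34 ± 2.00 CPM in mutants (SD, n = 6 each; log2 fold change 3.5, SE 0.413, adjusted p = 0.000153). Ackr3, a scavenging receptor reported to bind adrenomedullin, rose by 0.746 (adjusted p = 0.0171) and Esm1, a marker of endothelial tip cells, by 1.42 (adjusted p = 0.0388). Angptl4 fell by 0.765 on the log2 scale (adjusted p = 0.00935). In Cdh5-negative cells 26 were tested, and Adm2 (3.49, adjusted p = 0.000588) and Ackr3 (0.748, adjusted p = 0.0176) were higher and Angptl4 (-0.753, adjusted p = 0.00858) lower. The share over all genes was 11.7% there. In Cdh5-positive cells 0 of 16 passed (edgeR, against 0.801% of all genes), and at E8.0 0 of 27 (against 0.0244%).

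Between the Cdh5 classes, 28 of the further genes were tested, with 7 higher and 15 lower in Cdh5-positive cells, where 41.3% of all genes passed. The higher ones included Flt4, the receptor of VEGF-C (log2 difference 5.91, adjusted p = 1.02e-20), Plxnd1, a semaphorin receptor (4.52, adjusted p = 4.03e-22), and the angiopoietin receptor genes Tie1 (5.07, adjusted p = 6.93e-22) and Tek (3.72, adjusted p = 7.81e-17), of which Tie1 and Tek also served as endothelial markers. Pgf, a ligand of VEGFR1, was lower (-2.58, adjusted p = 1.59e-10). From E8.0 to E9.5 in all cells, 7 of 28 rose and 4 fell, against 21.7% of all genes in either direction. Sema3c, which binds neuropilins (1.65, adjusted p = 4.23e-05), and Vegfd (1.32, adjusted p = 0.00131) were among those that rose, and Apela, the early ligand of APLNR, fell by 1.79 (adjusted p = 6.37e-05). Apela and Aplnr thus both fell. In Cdh5-positive cells, Plxnd1 (1.02, adjusted p = 3.21e-05) and Esm1 (3.78, adjusted p = 0.00127) rose, of 18 tested, against 8.89% of all genes.

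A list of 20 low-oxygen response genes, chosen with earlier results of these data known, is described beside the 10 genes, and its counts are not independent evidence of a direction. At E9.5, 20 of 20 were higher in mutants in all cells (median log2 fold change 1.88) and in Cdh5-negative cells (1.86), and 13 of 19 tested in Cdh5-positive cells (1.42), where 10.3%, 11.7% and 0.801% of all genes tested passed. In all cells the 4 with the lowest adjusted p were Ier3 (3.22, adjusted p = 4.89e-09), Bhlhe40 (3.59, adjusted p = 6.68e-08), Ndrg1 (3.1, adjusted p = 8.6e-07) and Ndufa4l2 (3.37, adjusted p = 8.6e-07). In Cdh5-positive cells, where Adm and Flt1 rose, Ier3 (3.6, adjusted p = 0.00176), Ankrd37 (2.66, adjusted p = 0.0021), Ddit4 (2.61, adjusted p = 0.00697) and Egln1 (1.36, adjusted p = 0.0105) led the list. At E8.0, where none of the 10 genes passed, 0 of 20 passed (edgeR, median 0.253), and 18 of 20 passed the interaction with stage, against 0.0244% and 0.464% of all genes. The summed level of the list at E9.5 was 612.7 to 1279 CPM in controls and 1692 to 2554 CPM in mutants. Its part in the rise of Vegfa, Adm, Apln and Flt1 was not tested.

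The genes most like each of the 10 were ranked by Pearson's r of log2(CPM + 1) over 20 barcode samples and 13572 genes, as a description, since the samples share libraries, depth, stage and genotype. Vegfa was most like P4ha2 (r = 0.967), Tet2 (0.961) and Stc1 (0.954). Adm was most like Gys1 (0.934), Ndrg1 (0.925) and Klhl24 (0.918), and Apln most like Abhd18 (0.884), Gk5 (0.876) and Kdm7a (0.846). P4ha2 and Ndrg1 belong to the low-oxygen list. Ramp2 was most like Sox17 (0.923), Esam (0.903) and Rasip1 (0.898), and Calcrl most like Erg (0.773), Hhex (0.689) and Cpm (0.669); Esam belongs to the endothelial markers. Kdr was most like Amot (0.904), Fn1 (0.899) and Plekhg3 (0.894), and Flt1 most like Efna1 (0.89), Dysf (0.858) and Tnks (0.853). Nrp1 was most like Cgnl1 (0.95), Tmem88 (0.934) and Jcad (0.931), Aplnr most like Ifitm1 (0.957), Snap23 (0.955) and Tmbim6 (0.949), and Angpt2 most like Vmn1r86 (0.915), Slit3 (0.899) and Tmed8 (0.892).

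All 10 genes are protein coding in GENCODE M21 on GRCm38. The ligand genes are Vegfa at chr17:46016993-46032369, Adm at chr7:110627661-110629820, Apln at chrX:48025146-48034853 and Angpt2 at chr8:18690263-18741562. The VEGF receptor genes are Kdr at chr5:75932827-75978458, Flt1 at chr5:147561604-147726011 and Nrp1 at chr8:128358604-128503363. Calcrl lies at chr2:84330626-84425411, Aplnr at chr2:85136225-85139923 and Ramp2 at chr11:101246028-101259546. Exons of Ramp2 overlap those of Vps25 on the same strand, and exons of Nrp1 overlap Mir1903, so reads there may be split between genes. Adm overlaps Gm28863 and Angpt2 overlaps Mcph1 on the opposite strand without shared exons, and whether counting used strand is not given in the sources used here.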

How the data were processed

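Each cell's gene counts are whole-number UMI counts that the authors deposited as 1 sparse matrix over all 3 runs. The deposited per-cell table gives each cell's run, barcode, stage and condition. Per the submitters' processing notes, kallisto, bustools 0.46.1 and Cell Ranger were used with build GRCm38; the filters on cells are not given in the sources used here. The 10 genes, the 30 further genes, the low-oxygen list and the markers were chosen with earlier results of these data known. The genes named are the 10, at most 8 of the 30 and 4 of the low-oxygen list per comparison by adjusted p, and the 3 most alike per gene. These alternatives were chosen after seeing the data: the endothelial-like cluster in place of Cdh5, single genotypes, samples of at least 20 cells, run as a term in the share of Cdh5-positive cells, and, at E9.5 or in the interaction, run 3 alone and the Y-linked share.

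All deposited cells were kept and no doublet caller was run. Counts were summed per barcode sample (10 cells or more per Cdh5 class) and tested in edgeR 4.0.16 (R 4.3.3; TMM, filterByExpr, quasi-likelihood), with terms for stage and run; DESeq2 1.42.0 was an alternative. SE is the log2 fold change over the square root of F. Clusters came from scanpy 1.11.5 (2000 variable genes, 30 components, 20 neighbours, resolution 1; genes in at least 20 cells). A cluster was named when at least 60% and at least 3 of a class's markers were raised, with markers among its 10 leading genes (detected in 25% of cells, 5 CPM added). The tests were run on simulated counts with the fitted spread, in which samples differed only by depth and, for some genes, by the tested term. This cannot show how other differences of stage, run, sex or cell mix affect the tests.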

Additional observations from a re-analysis of the deposited data

Results flagged for a closer look

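The sample of 6 cells, control Bar6 at E9.5, had 0 CPM of Flt1 and 14.9 CPM of Ramp2, and the mutant of 57 cells, Bar5, had 12.9 CPM of Ramp2; each stood apart from the other 5 samples of its group by Dixon's test, which flags about 1 in 20 groups by chance. Without Bar6, as in the fits with samples of at least 20 cells, the fall of Ramp2 from E8.0 to E9.5 in all cells no longer passed (-0.643, adjusted p = 0.054).

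For Vegfa the mutant over control fold change was larger at E9.5 than at E8.0, by 1.45 on the log2 scale, and for Adm by 2.05.

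The E7.5 control, which no comparison used, had 28.2 CPM of Flt1, 8.06 CPM of Calcrl and 105 CPM of Ramp2, each above the highest of the other controls. It holds 28 cells, of which 67.9% were globin-high and 2 were Cdh5-positive, and its Wls level was inside the range of the mutants. These CPM values are small counts, since the sample has 496508 UMIs in all. Its summed 11 endothelial markers were at 449.1 CPM in all cells and 28.35 CPM in Cdh5-negative cells.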

How the results depend on the processing

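No fold change that passed changed sign under any alternative. Of the 10 genes, 5 passed by genotype over all stages in all cells; run 1 alone gave 0, run 2 alone 0, run 3 alone 2, the Y-linked share as a covariate 3 and the fit without E9.5 0. The same settings gave 0, 0, 2, 3 and 0 in Cdh5-negative cells, where 5 passed. With no filter on low counts, 4 passed in Cdh5-positive cells (0 with it) and 4 in the interaction with stage (2 with it). At E9.5 run 3 alone gave 2 in place of 5, and the Y-linked share 1 in place of 2 in Cdh5-positive cells. For stage, controls alone gave 3 in place of 5 in all cells and 0 in place of 3 in Cdh5-positive cells.

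Leaving out each sample in turn gave 2 to 6 by genotype in all cells, 0 to 1 in Cdh5-positive and 3 to 6 in Cdh5-negative cells. At E9.5 the counts were 3 to 5 in all cells, 0 to 3 in Cdh5-positive and 3 to 5 in Cdh5-negative cells. They were 0 to 2 for the interaction, 3 to 6 for stage in all cells, and -0.5 to 0.437 percentage points for the share of Cdh5-positive cells. No paired analysis was possible because the barcodes carry no replicate number shared between the genotypes.

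Counts over all genes moved more. By genotype in all cells 2295 passed, and 2, 27 and 58 in runs 1 to 3 alone, 698 with the Y-linked share and 1 without E9.5. In Cdh5-negative cells 2707 passed, and 1, 17, 61, 982 and 0. In Cdh5-positive cells 4 passed, 34 in DESeq2, 295 unfiltered, 14 from 2 UMIs, 2 in the cluster, 9 in run 1 and 2 with the Y-linked share. At E8.0 4 passed, 45 in DESeq2 and 35 unfiltered. At E9.5 1766 passed, 2701 in DESeq2 and 58 in run 3; in Cdh5-positive cells 70, 43 in DESeq2, 364 unfiltered and 22 with the Y-linked share. The interaction with stage gave 83, 397 in DESeq2, 669 unfiltered and 220 with the Y-linked share, and that with class 1, 0 with size factors, 26 unfiltered, 2 from 2 UMIs and 0 in the cluster. For stage 3878, 917 and 4105 passed in all, positive and negative cells, and 1025, 234 and 861 in controls alone, with 470 in mutants alone for positive cells. Leaving out 1 sample also moved these counts. At E9.5 in all cells 603 passed without Bar23, 704 without Bar22, 1103 without Bar19 and 1110 without Bar9. In Cdh5-negative cells at E9.5, 2090 passed, and 761 without Bar23, 899 without Bar22, 1042 without Bar19 and 1285 without Bar21. In Cdh5-positive cells at E9.5 the count was 11 without Bar21, 12 without Bar22, 16 without Bar23 and 160 without Bar20. By genotype over all stages it was 1409 without Bar23 and 1489 without Bar1 in all cells, 1791 without Bar23 in negative cells, and 3 to 58 (without Bar28 and Bar25) in positive cells. The interaction with stage gave 29 to 137 (without Bar25 and Bar20), that with class 0 to 2, and E8.0 gave 1 to 10 (without Bar24 or Bar27, and Bar29). For stage in positive cells 600 passed without Bar21. Fewer samples enter the single runs, single genotypes and fits without E9.5, but the counts did not follow the number of samples alone. Run 1 alone gave 2 over its stages with 11 samples and 1283 at E9.5 with 5 samples. The cause of the shifts was not tested. Apln, Adm and Angpt2 in Cdh5-positive cells rest on few UMIs, which limits what could be detected there.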
